A study of Mus musculus with 6 samples.

Results

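The genes described here encode the nuclear subunits of the mitochondrial oxidative phosphorylation system, and they were followed through hepatic stellate cells isolated warm or cold from 3 kinds of mouse liver tissue. Members were taken by symbol: genes starting with Ndufa, Ndufb, Ndufc, Ndufs, Ndufv, Uqcr, Cox4, Cox5, Cox6, Cox7, Cox8 or Atp5, with Sdha, Sdhb, Sdhc, Sdhd and Cycs, and without the Ndufaf assembly factors, symbols with -ps and Cox8b. This gave 85 of the 24346 gene symbols listed: 38 named for complex I, 4 for complex II, 8 for complex III, 17 for complex IV, 17 for complex V, and Cycs. Stellate cells are liver pericytes that store vitamin A. They came from wild type C57BL/6 mice aged 35 weeks, from livers of mice on a normal diet, or from the tumour region or the non-tumour region of livers of mice on a high-fat diet, each isolated by perfusion at 37 degrees (warm) or 6 degrees (cold). The sort took CD49a+ cells that lacked CD31 and CD45.2. Values of 3 libraries are given in the order normal diet, non-tumour region, tumour region. Each of the 6 combinations was 1 RNA sequencing library, so a value of a single library has no error of its own. The labels do not say how many mice a library holds or whether libraries came from separate mice. The error behind the p-values is how far these 6 libraries depart from effects of source and temperature that simply add. It holds noise, which may be technical, and any true difference in the temperature effect between sources.

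Oxidative phosphorylation makes most of the ATP of a resting cell. Complex I (NADH dehydrogenase) and complex II (succinate dehydrogenase) pass electrons to ubiquinone, complex III passes them to cytochrome c, complex IV (cytochrome c oxidase) passes them to oxygen, and complex V (ATP synthase) uses the proton gradient that results. A few subunits have alternative isoforms used in particular tissues or at low oxygen, among them Cox4i2 in place of Cox4i1 and the Ndufa4-like gene Ndufa4l2. Both are known as genes of pericytes and of cells at low oxygen. Ndufa4 is now regarded as a subunit of complex IV despite its name, and Atp5s and Atp5sl are now named for a role in building complex I. They are counted here under the complex of their symbol. The core subunits encoded by mitochondrial DNA were not analysed here.

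Because nuclear factors such as NRF1, the ETS factor GABP and YY1 are known to act on many promoters of this system, the promoters were searched for short cores of their motifs. The sequences, credited to RefSeq (GRCm38.p6), run from 250 bases before to 50 after the start of each gene, and 67 of the 85 members matched an entry by symbol. The NRF1 core GCATGCG, read on both strands, was in 11 of these 67 promoters (16.4%), in 6.92% of 8828 promoters of genes tested here and in 3.64% of all 27025 promoters. The ETS core CCGGAAG was in 15 member promoters (22.4%), in 19.2% of those of tested genes and in 9.12% of all, and the YY1 core AAGATGG in 9 (13.4%), 7.61% and 6.48%. The hypoxia core ACGTG was in 16 (23.9%), 26.2% and 19.7%, and the TATA motif TATAAA in 6 (8.96%), 6.76% and 14.2%. The shares of the ETS and hypoxia cores in the members thus lay near those of the tested genes. These are matches of letters in a window, not measured sites, and no test was run on them. Cox4i2 and Ndufa4l2 are among the 18 members without an entry. The lines below show 4 matches with up to 20 bases on either side, from members of 3 complexes, chosen because these windows overlap no annotated exon. Capitals mark the core or its reverse complement, and each is written 5′ to 3′ on the strand of the gene.
Ndufa6, NRF1 core, chr15:82354348-82354394, minus strand: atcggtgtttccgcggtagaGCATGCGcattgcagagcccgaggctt
Atp5l, NRF1 core, chr9:44920956-44920992, minus strand: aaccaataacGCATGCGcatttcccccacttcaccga
Uqcr11, ETS core, chr10:80406861-80406907, minus strand: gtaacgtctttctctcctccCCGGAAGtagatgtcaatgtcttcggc
Atp5e, ETS core as its reverse complement, chr2:174464177-174464223, minus strand: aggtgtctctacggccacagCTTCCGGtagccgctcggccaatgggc

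The unit is FPKM (fragments by transcript length and library size), so levels can be compared between genes per length. From the smallest steps between low values, a single fragment on 1 kb of transcript was estimated to give 0.043 to 0.06 FPKM, which corresponds to 16.7 to 23.3 M (1e+06) fragments per library and covers counting error only. Summed over all symbols the libraries held 492693 to 633363 FPKM. Marker genes of other cell types differed between the libraries. The summed level of 15 sinusoidal endothelial markers was 102, 632 and 581 FPKM warm, against 1775, 4329 and 2181 FPKM cold. That of 15 macrophage markers was 49.1, 35.8 and 891 FPKM warm, against 534, 630 and 2224 FPKM cold. No gene of these 2 lists was at 0 in all 6 libraries. Stellate cell markers were far above both, with sums of 23590 to 38200 FPKM over 15 genes, and Lrat, which stores vitamin A, was at 335 to 538 FPKM. Pecam1 (CD31, used to exclude cells) was at 0.9 to 90.6 FPKM and Itga1 (CD49a, used to collect them) at 87.6 to 204 FPKM.

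As a group the subunit genes were abundant, and their summed FPKM differed little among the 6 libraries. Their summed level was 15070, 14680 and 15880 FPKM warm and 15380, 15140 and 15710 FPKM cold. The highest sum was 1.08 times the lowest. As a share of each library's total FPKM the members made up 2.94%, 2.56% and 2.51% warm and 3.12%, 2.78% and 2.86% cold. On that scale they were lower at 37 degrees in all 3 pairs, and lower in both high-fat regions than in normal diet at each temperature. The test took genes whose mean reached 1 FPKM, which kept 82 of the 85 members and 11560 genes in all. Of these 82, 65 (79.3%) lay above the 90th percentile of all genes tested, which was 79.3 FPKM. For each gene the highest library was divided by the lowest: the median of this ratio was 1.19 over 81 members, 1.51 over all genes tested and 1.34 over 1865 genes of similar level (44.8 to 415 FPKM). The ratio was under 1.5 for 75 members (91.5%) for 67.1% of the genes of similar level and for 49% of all genes tested. In these mixed cells, fewer cells of a type and less RNA per cell cannot be told apart.

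**Figure D1:**
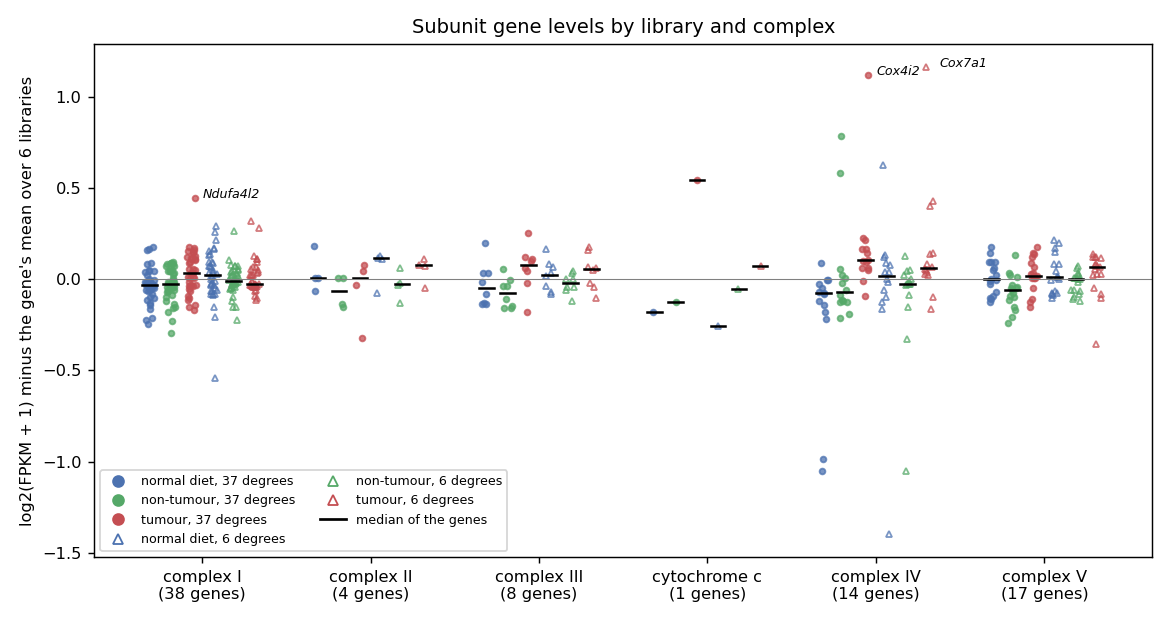
Level of each tested subunit gene in each library, as log2(FPKM + 1) minus the gene's own mean over the 6 libraries, by complex; each point is 1 gene, filled circles are 37 and open triangles 6 degrees, and black lines are medians over the genes. Most of the 82 genes lie close to 0 in every library, and the widest departures are those of the complex IV genes Cox4i2 and Cox7a1.

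The 4 comparisons were fitted with limma on log2(FPKM + 1) with liver source and temperature as additive terms, so that temperature rested on 3 pairs and a contrast of sources on 2. Adjustment was by Benjamini-Hochberg over all genes tested, with 0.05 as the threshold. Cox4i2 was the 1 member that passed for temperature, and it was higher at 37 degrees. Cox4i2 and Ndufa4l2 passed as higher in the tumour region than in normal diet, and Cox4i2 as higher in the non-tumour region than in normal diet. No member passed as lower in these 3 comparisons, and none passed between the tumour and the non-tumour region. The background is the share of all genes tested that passed: for tumour against normal diet 6.07% passed as higher and 3.28% as lower, beside 2 and 0 of 82 members. For non-tumour against normal diet the background was 2.98% higher and 2.59% lower, beside 1 and 0 members. For temperature it was 0.51% higher and 4.62% lower, beside 1 and 0 members. For tumour against non-tumour region it was 0.45% higher and 0% lower. By limma without adjustment (p below 0.05), 3 members were higher and 5 lower for temperature (background 8.52% and 12%), and 10 and 5 for tumour against normal diet (background 15.4% and 10.6%). For non-tumour against normal diet these were 2 and 4 (background 12.6% and 9.02%).

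**Figure D2:**
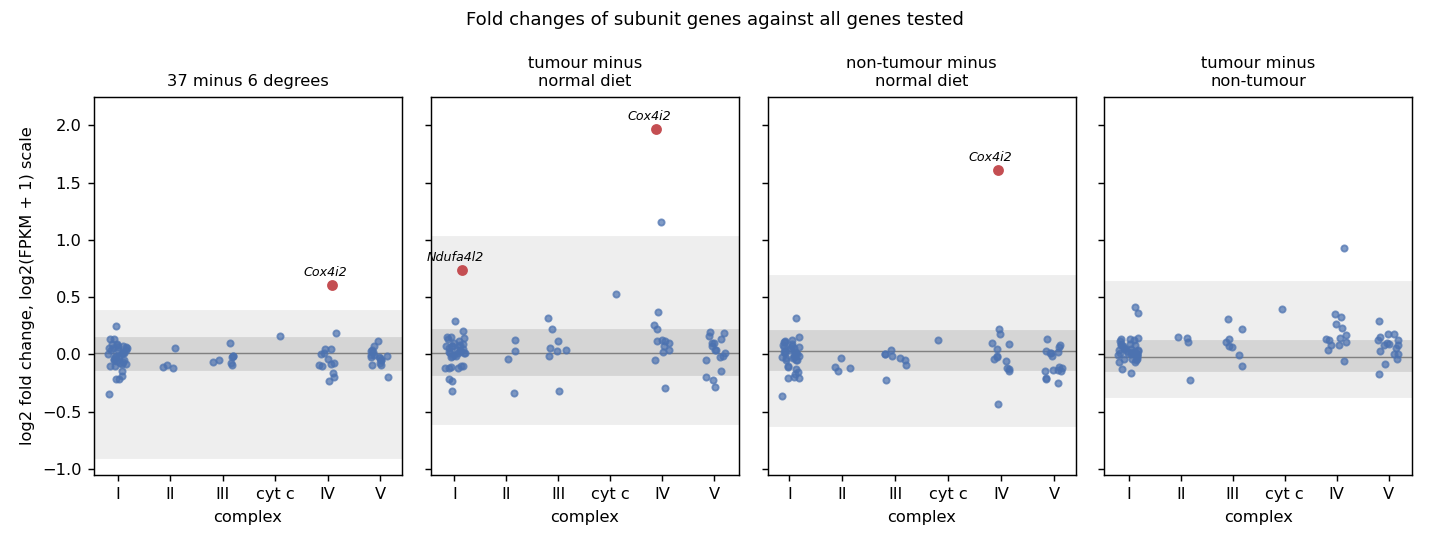
Log2 fold changes of the 82 tested subunit genes in the 4 comparisons, by complex. Points are genes, red and named where the adjusted p was under 0.05; the dark and light bands hold the middle 50% and 90% of all 11560 genes tested, and the grey line is their median. Cox4i2 lies above the light band in 3 panels, and most other genes lie within or beside the dark band.

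The intervals show what size of difference the fit leaves possible on the deposited scale. They do not cover the choice of scaling between libraries. For Ndufa4 in tumour against normal diet the interval was -0.55 to -0.08, and the estimate with quantile normalization was -0.59. The 95% interval of the log2 fold change lay within -0.5 to 0.5 for 77 of 82 members for temperature (93.9%), and for 59.4% of all genes tested. It did so for 68 members (82.9%, background 38.8%) for tumour against normal diet, for 75 (91.5%, background 40.6%) for non-tumour against normal diet and for 70 (85.4%, background 49.3%) for tumour against non-tumour region. Abundant genes have narrower intervals in this fit, and the members are abundant. For most members a 2-fold difference thus lay outside the interval, whereas small differences remained possible.

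Cox4i2, the isoform of complex IV subunit 4 used in lung, pericytes and cells at low oxygen, differed most among the libraries of all tested members other than Cox7a1, which was listed at 0 in 2 of them. The gene is on chromosome 2 at 152754173 to 152765037 (GRCm38, plus strand), and no exon of another annotated gene overlaps it. Its level was 5.62, 21.6 and 27.5 FPKM warm and 3.98, 12.6 and 16.7 FPKM cold. All 4 high-fat libraries were above both normal diet libraries, and within each source the warm library was above the cold one. The tumour region was 4.89 times normal diet at 37 degrees and 4.19 times at 6 degrees, and the non-tumour region 3.84 and 3.16 times. On the log2(FPKM + 1) scale the tumour region was 1.97 ± 0.13 higher than normal diet (SE, 2 pairs, limma adjusted p = 0.00698). The non-tumour region was 1.61 ± 0.13 higher (adjusted p = 0.00702). The tumour region was 0.36 ± 0.13 above the non-tumour region, which did not pass (adjusted p = 0.464), with a 95% interval of 0.03 to 0.69. Without the warm or the cold non-tumour library, which leaves 1 library of that region, its difference from normal diet was 1.52 and 1.70. The call was lost in both fits, as were those of all other genes. The lowest library held an estimated 68 fragments of Cox4i2 and the highest 340.

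With temperature Cox4i2 differed by less: the warm library was 1.41, 1.71 and 1.65 times the cold one. The log2 fold change was 0.61 ± 0.11 (3 pairs, adjusted p = 0.0412). This call was lost without any 1 of the 3 pairs, at adjusted p = 0.051 without normal diet, 0.271 without the non-tumour region and 0.136 without the tumour region. With library totals made equal (as in TPM) the log2 fold change was 0.53 (adjusted p = 0.0532). Its direction held in all 3 pairs. In the same comparison all 15 endothelial markers fell (median log2 fold change -3.12) and 4 of 15 stellate cell markers rose (median 0.35 with all 15 above 0). The part of the cell mixture in the difference was not tested.

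Cox4i1, the isoform found in most tissues, did not pass in these comparisons. It was at 448, 415 and 447 FPKM warm and 489, 442 and 459 FPKM cold. The tumour libraries overlap those of normal diet, whereas both non-tumour libraries were below both of normal diet. Its log2 fold change was -0.05 for the tumour region and -0.13 for the non-tumour region against normal diet (adjusted p = 0.762 and 0.446), with 95% intervals of -0.25 to 0.16 and -0.34 to 0.08. Cox4i2 made up 1.24%, 4.94% and 5.79% of the pair's summed FPKM at 37 degrees and 0.807%, 2.77% and 3.5% at 6 degrees. The minor isoform thus stayed a small part of subunit 4 transcripts in every library. Its share was higher at 37 degrees in 3 of 3 pairs, for which an exact sign-flip test gives p = 0.25 (two-sided), the smallest that 3 pairs allow.

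Ndufa4l2, a relative of Ndufa4 that is known to be induced at low oxygen, was the other member that passed. The gene is on chromosome 10 at 127514967 to 127517154 (plus strand). It was at 42.2, 50.4 and 64.9 FPKM warm and 32.3, 42.5 and 59.4 FPKM cold. At each temperature the order was normal diet, non-tumour, tumour, and both tumour libraries were above the other 4. The tumour region was 0.73 ± 0.10 above normal diet (adjusted p = 0.0166). The non-tumour region was 0.32 ± 0.10 above it, which did not pass (adjusted p = 0.148). The tumour region was 0.42 ± 0.10 above the non-tumour region (adjusted p = 0.255), and 37 was 0.25 ± 0.08 above 6 degrees (adjusted p = 0.176). The tumour call did not pass without the warm or the cold normal diet library or the cold tumour library (adjusted p = 0.0599, 0.0827 and 0.05), nor with each library scaled to one total (log2 fold change 0.52, adjusted p = 0.0553). An exon of Shmt2 on the other strand overlaps the gene, and without stated use of strand its reads could be counted there. Shmt2 itself was at 14.3 to 17.3 FPKM in all 6 libraries.

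Ndufa4 went the other way by values, without passing. It was at 451, 327 and 362 FPKM warm and 492, 409 and 394 FPKM cold, and all 4 high-fat libraries were below both of normal diet. Its log2 fold changes were -0.32 ± 0.09 for the tumour and -0.36 ± 0.09 for the non-tumour region against normal diet (adjusted p = 0.105 and 0.0953). Both passed with quantile normalization (-0.59 and -0.52, adjusted p = 0.0201 and 0.033) and with each library scaled to one total (-0.55 and -0.52, adjusted p = 0.0227 and 0.0348). Ndufa4l2 made up 8.56%, 13.3% and 15.2% of the summed FPKM of the 2 genes at 37 degrees and 6.15%, 9.41% and 13.1% at 6 degrees. As with Cox4i2, the share was lowest in normal diet and highest in the tumour region at both temperatures. It was higher at 37 degrees in 3 of 3 pairs (exact sign-flip test, two-sided p = 0.25).

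**Figure D3:**
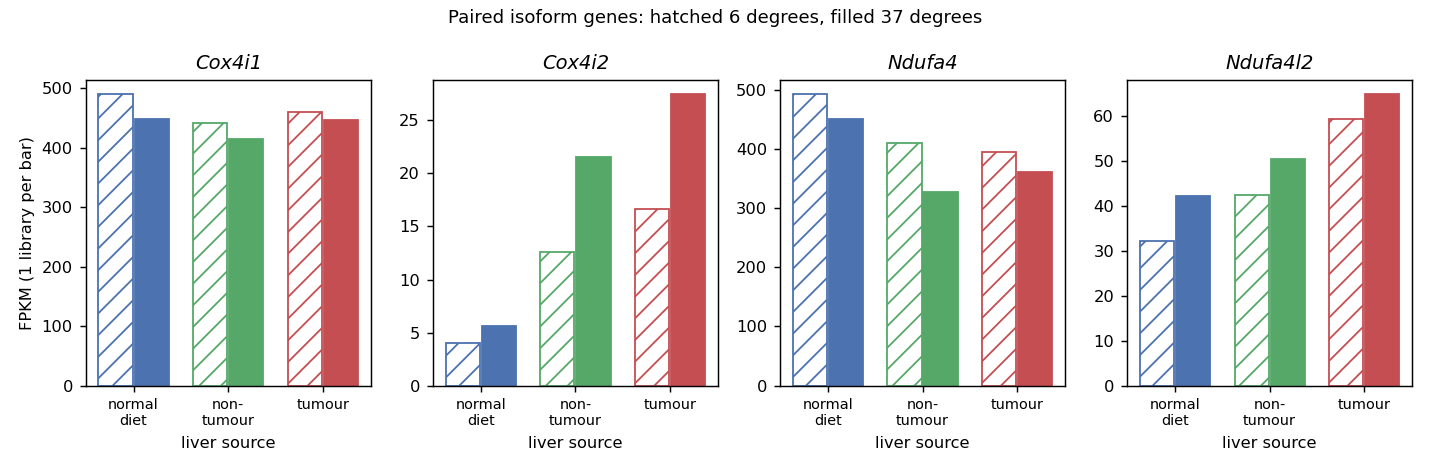
FPKM of the common isoform genes Cox4i1 and Ndufa4 and of their relatives Cox4i2 and Ndufa4l2 by liver source, 1 library per bar, hatched at 6 and filled at 37 degrees; each panel has its own axis from 0. Cox4i2 and Ndufa4l2 are lowest in both normal diet libraries, whereas Cox4i1 lies between 415 and 489 FPKM and Ndufa4 is highest in normal diet.

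**Figure D4:**
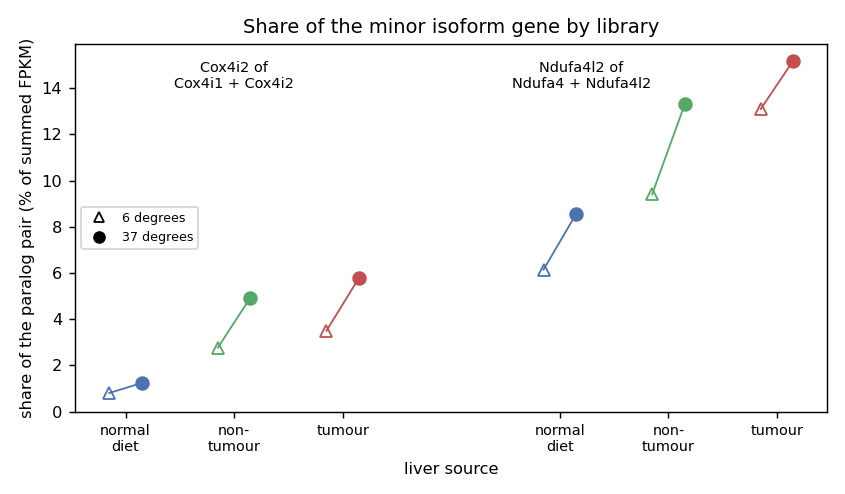
Share of Cox4i2 in the summed FPKM of Cox4i1 and Cox4i2, and of Ndufa4l2 in that of Ndufa4 and Ndufa4l2, in percent, by liver source; triangles are 6 and circles 37 degrees, 1 library each, joined within a source. Both shares are lowest in normal diet (0.807% and 6.15% at 6 degrees) and higher at 37 degrees within every source.

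Marker lists moved in both directions in the comparisons where these isoform genes rose. Of 15 stellate cell markers, 3 fell in the tumour region against normal diet (Hand2, Lhx2 and Hgf), Rgs5, Colec11 and Ngfr were among those that rose, and the median was 0.04. In the non-tumour region 3 rose (Rgs5, Colec11 and Ngfr) and none fell, with a median of 0.23. Rgs5, a pericyte gene, was at 143, 352 and 315 FPKM warm and 122, 235 and 231 FPKM cold, and rose by 1.02 ± 0.11 in the tumour and 1.12 ± 0.11 in the non-tumour region against normal diet (adjusted p = 0.0101 and 0.00923). Itga1, the gene of the sort marker, rose by 0.97 and 1.01 (adjusted p = 0.0104 and 0.0109). Of 8 smooth muscle markers tested, 5 rose in the tumour region (median 1.28) and 1 in the non-tumour region (median 0.26). The summed smooth muscle level over 10 genes was 624, 941 and 1361 FPKM warm and 470, 759 and 1379 FPKM cold. Of 15 endothelial markers, 2 rose in the tumour region (median 1.22) and 4 in the non-tumour region (median 1.93). Of 13 macrophage markers tested, 7 rose in the tumour region (median 2.57) and none passed in the non-tumour region (limma, median -0.11). Of 14 proliferation genes tested, 13 fell in the tumour region (median -1.86) and 12 in the non-tumour region (median -2.51). Of 12 hepatocyte markers tested, Cyp2e1, Ass1 and Trf fell in both regions (list medians -0.33 and -0.87). In the tumour region 5 of the 12 were above 0, and the list median was 1.19 warm and -1.57 cold. In the non-tumour region 0 of the 12 were above 0, with -0.24 warm and -1.47 cold. Whether the isoform genes differ with the makeup of the sorted cells was not tested.

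Known targets of hypoxia signalling were mostly higher in both high-fat regions than in normal diet. Of 17 tested, 6 rose in the tumour region (median 0.52, against 0.01 over all genes tested) and 5 in the non-tumour region (median 0.52, against 0.03), and none fell. Adm, which encodes the vasodilator peptide adrenomedullin, was at 114, 201 and 212 FPKM warm and 71.7, 153 and 166 FPKM cold (adjusted p = 0.00944 for tumour and 0.0129 for non-tumour region). The glucose transporter gene Slc2a1 had 15.7, 26.7 and 29.6 FPKM warm and 10.8, 21.8 and 21 FPKM cold (adjusted p = 0.0133 and 0.0173). P4ha1, a collagen prolyl hydroxylase subunit, had 46.8, 92.9 and 83.3 FPKM warm and 43.1, 70 and 69.7 FPKM cold (adjusted p = 0.0166 and 0.0151). Ldha, which makes lactate, had 392, 602 and 671 FPKM warm and 385, 536 and 562 FPKM cold (adjusted p = 0.0179 and 0.0374). Between 37 and 6 degrees the list had 1 gene higher (Adm) and 1 lower (Pdk1, which restrains pyruvate oxidation) with a median of 0.15. Between the tumour and the non-tumour region no gene of the list passed, with 8 of 17 above 0 and a median of -0.004. Whether the isoform genes differ with hypoxia signalling was not tested.

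Complex I, the entry point for NADH, had 38 members, all of them tested, with mean levels from 33.2 FPKM for the core subunit Ndufs1 to 415 FPKM for the accessory subunit Ndufa3. Their summed level was 5508 to 5792 FPKM, a ratio of 1.05 between the highest and the lowest library. For temperature the median log2 fold change was -0.002, with 19 of 38 above 0. Ndufa8, an accessory subunit, had the lowest value at -0.34 ± 0.09 (adjusted p = 0.12). It was at 97.3, 98.4 and 113 FPKM warm and 129, 139 and 124 FPKM cold, and the temperatures do not overlap. Ndufb8 was the next lowest at -0.21 (adjusted p = 0.18). With each library scaled to one total, Ndufa8 passed as lower (-0.45, adjusted p = 0.0304). For the source contrasts, complex I medians were 0.03 (tumour against normal diet), 0.01 (non-tumour against normal diet) and 0.03 (tumour against non-tumour). The first was 0.11 warm and -0.01 cold. Medians of complexes II, III, IV and V were -0.0035, 0.05, 0.12 and 0.04 for tumour against normal diet. They were -0.11, -0.02, -0.02 and -0.11 for non-tumour against normal diet, and 0.13, 0.09, 0.14 and 0.09 for tumour against non-tumour. Ndufa10 was among the 3 lowest members for tumour against non-tumour region, at -0.16 (adjusted p = 0.578).

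Complex II, which is also the succinate dehydrogenase of the citric acid cycle, had its 4 genes at similar levels. Sdha, the flavoprotein that oxidizes succinate, was at 139, 124 and 98 FPKM warm and 133, 128 and 119 FPKM cold. Both tumour libraries were lowest, with a log2 fold change of -0.33 ± 0.11 against normal diet (adjusted p = 0.132) and -0.22 ± 0.11 against the non-tumour region (adjusted p = 0.557). Sdhb, the iron-sulfur subunit, was at 121 to 147 FPKM. Sdhc and Sdhd, the membrane anchors, were at 77.2 to 91.4 and at 96.1 to 114 FPKM. None of the 4 passed in any of the 4 comparisons (limma, 1 lower at an unadjusted p under 0.05, which was Sdha in tumour against normal diet).

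Complex III had 8 tested genes, from Uqcrc2 at a mean of 57.4 FPKM to Uqcrb at 447 FPKM. Uqcrc1, a core subunit, was at 137, 117 and 106 FPKM warm and 134, 116 and 111 FPKM cold. All high-fat libraries were below normal diet at both temperatures. Its log2 fold change was -0.32 ± 0.08 for the tumour region (adjusted p = 0.0756) and -0.22 ± 0.08 for the non-tumour region (adjusted p = 0.202). The first passed with quantile normalization (-0.48, adjusted p = 0.0436) and with each library scaled to one total (-0.55, adjusted p = 0.0284). Uqcrh, the hinge subunit, pointed up in the tumour region: it was at 173, 170 and 227 FPKM warm and 180, 184 and 213 FPKM cold (log2 fold change 0.32, adjusted p = 0.1). Members of 1 complex thus lay on both sides of 0 in the same comparison.

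Cycs encodes cytochrome c, the carrier between complexes III and IV, which also triggers apoptosis when released. It was at 43.8, 45.5 and 72.8 FPKM warm and 41.5, 47.9 and 52.2 FPKM cold. The warm tumour library stood above the other 5. The tumour region was 0.52 ± 0.15 above normal diet (adjusted p = 0.0959) and 0.40 ± 0.15 above the non-tumour region (adjusted p = 0.475). Without the cold tumour library the first of these was 0.76 and passed (adjusted p = 0.0336), as the estimate then rested on the warm tumour library.

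Complex IV had 17 members, of which 14 were tested. Cox6c, a small structural subunit, had the highest mean of all members at 699 FPKM. It was at 742, 725 and 769 FPKM warm and 651, 656 and 651 FPKM cold, so that the temperatures do not overlap, by a log2 fold change of 0.19 ± 0.07 that did not pass (adjusted p = 0.21). Cox5a, the subunit 5a gene, was highest in both tumour libraries. It was at 118, 120 and 143 FPKM warm and 132, 137 and 182 FPKM cold (0.37 ± 0.09 for tumour against normal diet, adjusted p = 0.0652; -0.23 ± 0.07 for temperature, adjusted p = 0.165). For tumour against non-tumour region 13 of the 14 tested complex IV genes were above 0, with a median of 0.14, against -0.02 over all genes tested. None of these differences passed. In the same comparison the 78 tested cytosolic ribosomal protein genes had a median of 0.14 with 76 above 0. Such a shift was thus not particular to complex IV.

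Most tissue-restricted isoforms of complex IV were near the limit of detection. Cox7a1, the heart and skeletal muscle form of subunit 7a, was at 0, 2.1 and 1.43 FPKM warm and 1.27, 0 and 3.63 FPKM cold, an estimated 0 to 35 fragments. Its estimate for tumour against normal diet was 1.15 with a 95% interval of -0.59 to 2.90 (adjusted p = 0.358), and its direction cannot be read at this depth. Cox6b2, a form known from testis, was at 3.4 to 7.54 FPKM and highest in the cold normal diet library. Cox6a2, the muscle form of subunit 6a, was under the filter at 0 to 2.27 FPKM, and Cox7b2 reached 0.14 FPKM in 1 library. Cox8c was listed at 0 in all 6. The common forms were at ordinary levels: Cox6a1 was at 418 to 490, Cox6b1 at 461 to 556, Cox7a2 at 138 to 158, Cox7b at 53.1 to 64.1 and Cox8a at 432 to 544 FPKM. Cox7a2l, which is known to help join complexes III and IV into supercomplexes, was at 74.7, 83.5 and 79.3 FPKM warm and 90.1, 92.6 and 89.7 FPKM cold. The temperatures do not overlap, by -0.20 ± 0.07 (adjusted p = 0.194).

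Complex V, the ATP synthase, had 17 members, all tested, and its summed level was 3733 to 4072 FPKM. Atp5b, the catalytic beta subunit, was the highest at a mean of 502 FPKM, and the assembly-related Atp5sl the lowest at 6.82 FPKM. The genes Atp5g1, Atp5g2 and Atp5g3 encode the same mature ring subunit c. They held 22.3% to 25.8%, 31.3% to 34.6% and 41.6% to 44.4% of their summed FPKM, so that the order Atp5g3, Atp5g2, Atp5g1 was the same in every library. Atp5a1, the alpha subunit, was at 235, 197 and 193 FPKM warm and 234, 199 and 193 FPKM cold. Both high-fat regions were below normal diet at both temperatures, by -0.28 ± 0.08 (adjusted p = 0.0933) and -0.24 ± 0.08 (adjusted p = 0.152). Tumour against normal diet passed with quantile normalization (-0.48, adjusted p = 0.0323) and with each library scaled to one total (-0.51, adjusted p = 0.0251). Atp5sl was among the 3 lowest members for tumour against non-tumour region, at -0.17 ± 0.16 (adjusted p = 0.742).

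Over all complexes, the median of the subunit genes with temperature was below 0 under each scaling, by an amount that depended on the scaling between libraries. The median log2 fold change of the 82 members was -0.02, against 0.01 over all genes tested, with 33 of 82 above 0. With each library scaled to one total it was -0.13, against -0.09 over all genes, with 7 of 82 above 0. With quantile normalization it was -0.09, against 0.06, with 18 of 82 above 0. As deposited, 10 members were higher in all 3 pairs (background 23.4%) and 20 were lower in all 3 (background 21.8%). The 2 temperatures did not overlap for 2 members that were higher at 37 degrees (Cox6c and Ndufa2, background 8.3%) and for 8 that were lower (background 9.4%). Those 8 were Cox7a2l, Ndufa8, Ndufb8, Ndufb10, Ndufb11, Ndufs8, Ndufv2 and Ndufv3. On the deposited scale the share that was lower was thus near the background, and the share that was higher was under it.

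For tumour against normal diet the median over members was 0.04, against 0.01 over all genes tested, with 56 of 82 above 0. The median was 0.01 without the warm tumour library, 0.09 without the cold normal diet library and 0.08 without the cold tumour library. Its direction depends on the scaling between libraries. With each library scaled to one total, the median over all genes moved to -0.20 and that over the members to -0.19. The members' calls were then 1 higher and 6 lower in place of 2 and 0, beside 543 and 842 of all 12386 genes tested. With quantile normalization the members' calls were 2 higher and 3 lower, beside 541 and 471 of all 11560 genes tested. The share of members called lower was thus near the background in both. For non-tumour against normal diet the median was -0.01, against 0.03 over all genes, with 37 of 82 above 0. With each library scaled to one total it was -0.17, against -0.11, with 5 of 82 above 0, and with quantile normalization -0.11, against 0.00, with 13 of 82 above 0. Its main value was near 0 and ranged from -0.04 to -0.005 without each library in turn. For tumour against non-tumour region it was 0.08, against -0.02, with 63 of 82 above 0, and 0 members passed by limma (8 were higher and 0 were lower with an unadjusted p below 0.05, background 6.36% and 3.75%). That median was 0.03 without the warm tumour library, with 46 of 82 above 0, and 0.05 without the warm non-tumour library, with 58 above 0. With each library scaled to one total it was 0.004, against -0.08 over all genes, and with quantile normalization -0.03, against -0.05. Of the 82 members, 29 had both tumour libraries above both of normal diet (background 25.1%) and 12 had both below (background 24.6%). For the non-tumour region these counts were 13 (background 24.1%) and 20 (background 21.3%). Between the tumour and the non-tumour region they were 31 (background 14.7%) and 9 (background 17.8%). The cytosolic ribosomal protein genes given above were shifted up in that comparison as well. The contrasts with normal diet share the same 2 normal diet libraries.

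Few genes that build or serve the system passed. Of 44 tested assembly factors none passed in any of the 4 comparisons, with medians between -0.01 and 0.06 (limma). The 77 mitochondrial ribosomal protein genes had 1 call, Mrps18b, higher by 0.45 in the tumour region than in normal diet (adjusted p = 0.0433). In the non-tumour region Mrps18b was 0.44 above normal diet, which did not pass (limma adjusted p = 0.0599). Among 17 citric acid cycle genes Idh2, the mitochondrial NADP-dependent isocitrate dehydrogenase, was at 94.9, 61 and 61.6 FPKM warm and 85.8, 50 and 62.1 FPKM cold. It fell in both high-fat regions (adjusted p = 0.0373 for tumour and 0.0239 for non-tumour), and no other gene of that list passed. Among 17 carriers and partners, Ucp2, the uncoupling protein that is also a gene of macrophages, was at 22.9, 33.6 and 70 FPKM warm and 57.6, 87.2 and 137 FPKM cold. Ucp2 fell with temperature (adjusted p = 0.00869) and rose in the tumour region (adjusted p = 0.0072), and the summed macrophage markers given above moved the same way in both comparisons. In the non-tumour region Ucp2 was 0.56 above normal diet without passing (limma adjusted p = 0.0669), whereas the macrophage markers had a median of -0.11. A link of Ucp2 with macrophage content was not tested. Higd2a, a supercomplex assembly factor, was at 88.7, 112 and 117 FPKM warm and 93.9, 120 and 122 FPKM cold. It rose by 0.39 in the tumour region against normal diet (limma adjusted p = 0.0446). In the non-tumour region it was 0.34 above normal diet without passing (adjusted p = 0.0783). Cyc1, the complex III subunit cytochrome c1, was at 95.2 to 110 FPKM and did not pass. Of 10 tested regulators of mitochondrial biogenesis none passed in any comparison (limma): Nrf1 was at 11.1 to 14.4, Gabpa at 9.03 to 12.9 and Tfam at 6.01 to 8.02 FPKM, and Ppargc1a stayed under 0.1 FPKM.

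The members share few features of position. Of 84 with a single annotated position (GENCODE M21, GRCm38), 3 lie on the X chromosome, and no chromosome holds more than 9. Their transcripts are short: the median length of the longest annotated transcript was 1025 bases, against 3335 bases over 11143 tested genes, and 40 were under 1000 bases. For 29 members an exon of another gene overlaps the locus on either strand.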

How the data were processed

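The authors deposited 1 table of FPKM per library. The submitters' processing notes name mm10, TopHat2 2.1.1, Bowtie2 and Cuffdiff 2.2.1; annotation, strand and scaling are not stated. Depth was estimated, as the tables have no counts, from the commonest low value of FPKM times length among genes with 1 annotated transcript.

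Here log2(FPKM + 1) was fitted with limma 3.58.1 in R 4.3.3 (intensity trend, liver source and temperature as additive terms), leaving 2 residual degrees of freedom (5.37 with the prior). Of 24346 symbols, 1284 named as small RNAs were dropped, and 11560 reached a mean of 1 FPKM and were tested. The pseudocount makes fold changes of low genes smaller.

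Alternatives were other scalings, a pseudocount of 0.1 FPKM, no filter or a mean of at least 5 FPKM, no trend, fewer terms and fewer libraries. Genes were named where they passed in a comparison, were among the 3 highest or lowest fold changes, or the highest or lowest level of their complex, or belonged to a fixed set of isoforms; others were added from the lists. Members, lists and tests were chosen with earlier results of these data known. Positions are from GENCODE M21 (GRCm38, the build of mm10).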

Additional observations from a re-analysis of the deposited data

How the results depend on the processing

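The fit itself pairs libraries by source and by temperature; the labels give no replicate numbers for any further block. For temperature, the 1 member called higher became 0 with library totals made equal (where 1 was lower), without the low-value filter, without the intensity trend or the source term, and 0 to 0 without each pair. For tumour against normal diet, the 2 called higher became 1 with equal totals, 0 without the filter or the temperature term, and 1 to 2 without each library; members called lower were 6 with equal totals and 3 with quantile normalization. For non-tumour against normal diet, the 1 called higher became 0 without the filter or the temperature term, and 0 to 1 without each library; 1 was lower with equal totals and 1 with quantile normalization. Over all genes, tumour against normal diet had 842 of 12386 lower with equal totals and 471 of 11560 with quantile normalization. In non-tumour against normal diet these were 503 and 347. With temperature, 790 of 12386 were lower with equal totals. Without the filter no gene passed in any comparison, members or not, and without the source term none passed for temperature. Cox4i2 kept its direction in all alternatives, from 0.53 to 0.71 for temperature (adjusted p from 0.0318 to 0.795), 1.82 to 2.15 for tumour (0.00521 to 0.143) and 1.46 to 1.78 for non-tumour against normal diet (0.00575 to 0.167). Ndufa4l2 ranged from 0.52 to 0.83 for tumour against normal diet (0.016 to 0.162). Quantile normalization moved medians of complexes relative to all genes: for temperature to -0.136, -0.207, -0.162, -0.156 and -0.174 for complexes I, II, III, IV and V; for tumour against normal diet to -0.091, -0.122, -0.068, -0.04 and -0.103; for non-tumour against normal diet to -0.16 and -0.145 for complexes III and IV; for tumour against non-tumour to 0.013 for complex V. The cause was not tested. Depth limits Cox7a1, Cox6a2 and Cox7b2, and also Cox8b in the high-fat libraries.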

Other observations

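Cox8b, the heart, skeletal muscle and brown fat form of complex IV subunit 8, is not among the members and was looked at after its values were seen. Its level was 11.2, 0.357 and 1.09 FPKM warm and 5.69, 0.309 and 0.308 FPKM cold (normal diet, non-tumour region, tumour region). All 4 high-fat libraries were thus under both normal diet libraries, opposite in direction to Cox4i2. Its log2 fold change was -2.45 ± 0.24 for the tumour and -2.76 ± 0.24 for the non-tumour region against normal diet (2 pairs each, limma adjusted p = 0.00885 and 0.00802). For 37 against 6 degrees it was 0.53 ± 0.20 (adjusted p = 0.22). The gene reached the filter through its normal diet libraries, and its high-fat values were near the limit of detection. The size of the difference therefore cannot be read. As the gene was picked by these values, the p-values lend it no independent support.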
